A study of Mus musculus with 34 samples.

Results

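Fos binding in macrophages of C57BL/6 mice was described from one peak list made after treatment with the TLR4 agonist Kdo2 lipid A (KLA) and one made after vehicle (Veh). A Veh and a KLA peak sharing 1 bp or more counted as a single locus, which gave 25071 Fos loci. All C57BL/6 lists used, merged separately in the same way, gave 81411 loci, of which 56525 were without Fos. Of the 25071 Fos loci, 23268 were KLA-only, 1093 were shared and 710 were Veh-only. A Fos list from BALB/cJ macrophages after KLA was set beside these loci. The series measured the AP-1 monomers and the factors PU.1, CEBPα and PPARγ by ChIP-seq in thioglycollate-elicited macrophages (TGEMs), the cells recruited to the peritoneum by an irritant. Here the cells came from male mice, 8 weeks old and C57Bl/6J by the study's methods, while the sample labels gave C57Bl/6EiJ. They were collected 3 days after thioglycollate and treated for 1 h with PBS (Veh) or with 100 ng/mL KLA, and Fos was precipitated with the antibody sc-7202. The authors combined the replicates into one list per condition, so no difference below has a replicate check, and its interval covers only the counting of loci.

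AP-1 is a dimer of basic leucine zipper proteins. Fos does not form stable dimers with itself and binds DNA with a partner such as a Jun protein, most often at the TPA response element (TRE). Its gene is an immediate-early gene, silent in many resting cells and induced within minutes by receptor signals. PU.1 and CEBPα are the lineage factors that select much of the enhancer set of macrophages, and PPARγ is a nuclear receptor of lipid metabolism. TLR4 is the receptor for bacterial lipopolysaccharide, whose lipid A moiety KLA represents.

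The sequences of the strongest KLA-only and shared loci are shown because they carry the TRE, and those of the Fos and Chst11 loci because they do not. Strength was the read count the authors listed for the peak, which ranks peaks within one list. The lines give GRCm38 (mm10) positions on the plus strand and 120 bp of sequence in lower case, with the word TGAGTCA or its reverse complement in capitals.
Chst11, KLA-only, chr10:82962673-82962792: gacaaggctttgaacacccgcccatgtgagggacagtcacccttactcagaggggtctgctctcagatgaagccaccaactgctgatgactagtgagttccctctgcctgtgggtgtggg
Sema4b, KLA-only, chr7:80166822-80166941: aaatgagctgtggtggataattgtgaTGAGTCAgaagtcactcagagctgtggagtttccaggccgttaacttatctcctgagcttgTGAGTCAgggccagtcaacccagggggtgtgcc
Fos, KLA-only, chr12:85513792-85513911: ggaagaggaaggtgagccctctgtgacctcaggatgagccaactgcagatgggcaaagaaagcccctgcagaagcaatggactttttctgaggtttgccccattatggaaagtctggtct
Irf2bp2, KLA-only, chr8:126684094-126684213: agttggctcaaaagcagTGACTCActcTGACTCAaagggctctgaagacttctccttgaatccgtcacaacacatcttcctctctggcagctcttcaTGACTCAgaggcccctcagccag
Camk2d, shared, chr3:126831571-126831690: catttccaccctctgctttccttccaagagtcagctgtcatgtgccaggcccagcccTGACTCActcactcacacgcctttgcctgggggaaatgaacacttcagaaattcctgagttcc
Jazf1, shared, chr6:52825631-52825750: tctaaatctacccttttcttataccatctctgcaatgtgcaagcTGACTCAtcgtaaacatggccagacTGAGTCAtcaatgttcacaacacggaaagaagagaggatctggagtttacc
The Sema4b locus held 2 such words and the Irf2bp2 locus held 3. In the central 200 bp of the 10 strongest loci of each class, TGAGTCA was found at 8 KLA-only loci, at all 10 shared loci and at 0 Veh-only loci.

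The strongest Veh-only loci had a different sequence. They are shown with the word CCAAT or its reverse complement in capitals, the core of the site of NF-Y, a factor of promoters that is not a leucine zipper protein. Exons were avoided.
Ap3m2, Veh-only, chr8:22805646-22805765: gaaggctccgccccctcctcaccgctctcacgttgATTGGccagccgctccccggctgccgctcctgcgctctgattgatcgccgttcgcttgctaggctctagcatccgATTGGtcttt
Mxd4, Veh-only, chr5:34187970-34188089: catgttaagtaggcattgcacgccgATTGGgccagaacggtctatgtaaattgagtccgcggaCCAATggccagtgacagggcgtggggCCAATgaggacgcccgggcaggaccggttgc
Ivd, Veh-only, chr2:118861834-118861953: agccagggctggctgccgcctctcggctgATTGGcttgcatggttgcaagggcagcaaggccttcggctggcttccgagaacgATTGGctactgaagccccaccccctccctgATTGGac
Sin3a, Veh-only, chr9:57076073-57076192: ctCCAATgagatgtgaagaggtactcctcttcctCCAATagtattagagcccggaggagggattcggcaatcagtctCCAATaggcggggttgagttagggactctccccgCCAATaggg
The Sin3a locus held 4 such words in 120 bp and the Ivd and Mxd4 loci held 3 each. The word was chosen after these loci had been seen, so its shares are descriptions.

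Most Fos loci were listed after KLA alone. Of the 1803 loci with a Veh peak, 60.6% (95% Wilson interval 58.3 to 62.9) also had a KLA peak, and of the 24361 loci with a KLA peak 4.49% (4.23 to 4.75) had a Veh peak. With the KLA list cut to the length of the Veh list, 343 Veh loci were shared and 1461 were Veh-only, and with peaks of score 1000 alone, the highest the authors' reproducibility score reaches, 127 were shared and 303 were Veh-only. The counts ran from 23 to 312 with a median of 51 in the KLA list and from 13 to 115 with a median of 22 in the Veh list. These counts were not scaled to the depth of the libraries, so they are not compared between the lists. A locus without a peak in a list did not pass the authors' thresholds there, which is not a measurement of no binding. No cells lacking Fos were among the samples, so whether each listed peak reflects Fos itself was not tested. As a check of the cell type, all 10 macrophage genes looked at, among them Csf1r, Adgre1 and Cd68, had a PU.1 peak in Veh within 10 kb, with a median of 7 peaks a gene. Over all 21911 protein-coding genes 59.0% had one, with a median of 1. Of the markers of other cells, 9 of 13 for T and B cells, 7 of 13 for neutrophils, eosinophils and mast cells, 2 of 10 for fibroblasts and mesothelium and 4 of 10 for hepatocytes and neurons had one, so a PU.1 peak alone does not mark a macrophage gene.

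The 3 classes differed in their distance from transcription start sites (TSSs) of protein-coding genes. Of the KLA-only loci, 13.0% (12.6 to 13.4) had their centre within 1 kb of a TSS, 32.7% lay at 1 to 10 kb and 54.3% lay farther away. Of the shared loci, 38.3% (35.5 to 41.3) lay within 1 kb. Of the Veh-only loci, 89.9% (87.4 to 91.9) did. The Veh-only share was 76.9 percentage points above the KLA-only share (95% Newcombe interval 74.4 to 78.9), and the shared class stood 25.3 points above it (22.5 to 28.3). Positions within 1 kb of a TSS made up 3.70% of the genome and 20.9% of all C57BL/6 loci. With the KLA list cut to its strongest peaks, as many as the Veh list has, the shares within 1 kb were 7.60% for KLA-only, 9.62% for shared and 70.2% for Veh-only loci. With 3 kb in place of 1 kb the KLA-only share was 23.7%. The KLA-only loci were thus mostly away from promoters and the Veh-only loci almost wholly at them. By annotation, 48.1% of the KLA-only loci lay in introns and 46.2% outside genes, while 3.36% lay in UTRs and 2.27% in other exons. Of the Veh-only loci, 66.1% lay outside genes, 16.2% in UTRs and 15.2% in introns.

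**Figure D1:**
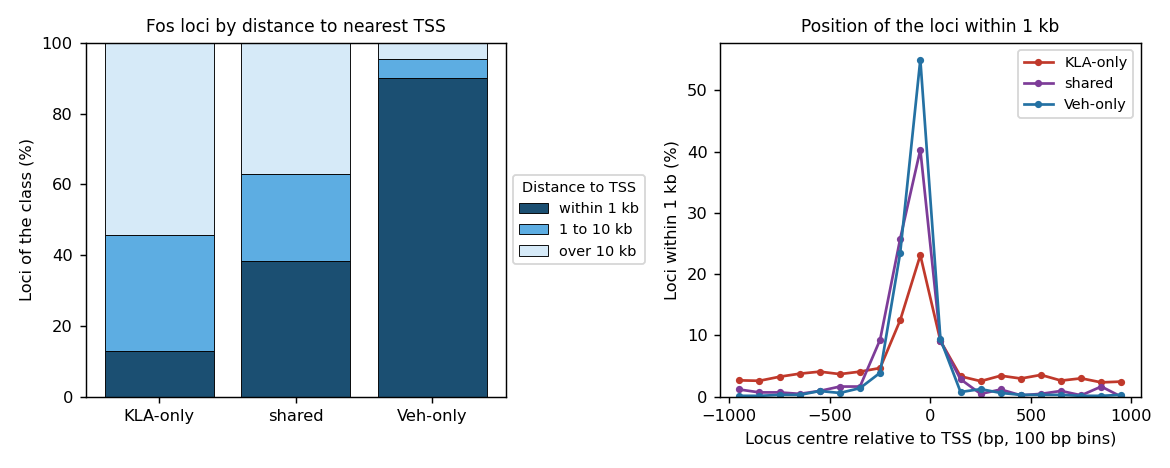
The left panel plots the share of loci (%) within 1 kb, at 1 to 10 kb and over 10 kb from the nearest protein-coding TSS for the 3 classes, and the right panel plots, for loci within 1 kb, the share (%) in each 100 bp bin of signed distance (negative is upstream). Veh-only loci sit mostly within 1 kb (89.9%), and 55.0% of those lie in the 100 bp just upstream of the TSS, against 23.1% for KLA-only loci.

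Within 1 kb, the classes also differed in where they sat. With negative values upstream of the TSS, the median position of the Veh-only loci was -73 bp, with quartiles at -114 and -29 bp. Upstream loci made up 86.4% (83.5 to 88.8) of the 638 Veh-only promoter loci, 82.8% (78.9 to 86.1) of the 419 shared ones and 64.5% (62.8 to 66.2) of the 3025 KLA-only ones. The KLA-only promoter loci were thus the most spread, with quartiles at -277 and 133 bp. The windows of 200 bp at the locus centres had a median GC content of 48% in the KLA-only class, 55% in the shared class and 62% in the Veh-only class, against 55% in the 200 bp upstream of all protein-coding genes.

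Most KLA-only loci had a peak of another AP-1 monomer in Veh, before Fos was listed there. ATF3 had a Veh peak at 55.2% (54.5 to 55.8) of the KLA-only loci, JunD at 49.7% (49.1 to 50.4) and Jun at 40.5% (39.9 to 41.1). FosL2, a Fos relative, had one at 14.5% and JunB at 1.15%, whose Veh list was the shortest. At least 1 of these 5 monomers had a peak at 63.5% (62.8 to 64.1) of the KLA-only loci, against 36.7% of all C57BL/6 loci. With only the strongest part of each factor's list, cut at its median, this share was 42.1%. ATF3, Jun and JunD were all listed at 32.9%. The shared loci had more of each monomer. ATF3 stood at 79.4% of them, JunD at 78.9%, Jun at 71.5% and FosL2 at 55.4%. The gap to the KLA-only class was widest for FosL2, at 41.0 points (38.0 to 43.9), and was 24.2 points (21.6 to 26.6) for ATF3. At the Veh-only loci ATF3 had a Veh peak at 20.4%, JunD at 21.7% and Jun at 17.5%, below the shares of the KLA-only loci by 34.8, 28.0 and 23.0 points. The Veh-only loci thus had a Fos peak in Veh mostly without a listed peak of the other monomers. Of them 60.8% (57.2 to 64.4) had none of the 5, against 13.9% (12.0 to 16.1) of the shared loci. At least 1 was listed at 39.2% (35.6 to 42.8) of the Veh-only loci, close to the 36.7% of all C57BL/6 loci. The lack of other monomers thus sets the Veh-only loci apart from the other Fos loci and not from that background.

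The lineage factors were also at many KLA-only loci in Veh. PU.1 had a Veh peak at 45.0% (44.3 to 45.6) of them, CEBPα at 24.4% (23.9 to 25.0) and PPARγ at 47.5% (46.9 to 48.2). With the factor lists cut at their medians the PU.1 share was 28.6%. The shares over all C57BL/6 loci were 50.6% for PU.1, 15.8% for CEBPα and 38.1% for PPARγ. The PU.1 share of the KLA-only loci lay below that background here, and also with a score of at least 830, at 49.3%. It lay above the background at 61.5% with the KLA list cut to the length of the Veh list. With the strongest part of each list it was 52.0%, and with a score of 1000 alone 51.5%. Over the C57BL/6 loci without Fos the PU.1 share was 52.0%. Lists that enter the background are also the lists that are counted here. At shared loci the shares were 64.1% for PU.1, 35.6% for CEBPα and 80.0% for PPARγ. At Veh-only loci they were 40.7%, 9.30% and 56.6% in the same order. PPARγ was the one factor of the 8 that was more frequent at Veh-only than at KLA-only loci, with a difference of -9.09 points for KLA-only minus Veh-only (-12.7 to -5.36). Among promoter loci alone its shares were close, at 56.4% of the KLA-only and 56.6% of the Veh-only loci.

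**Figure D2:**
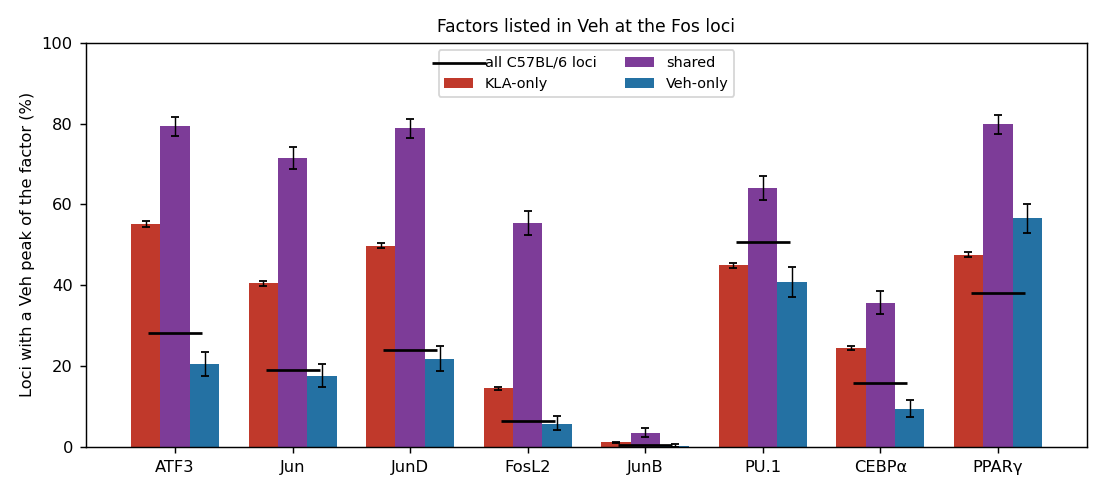
Bars give the share of Fos loci (%) of the 3 classes that overlapped a Veh peak of each of 5 AP-1 monomers and of PU.1, CEBPα and PPARγ, with 95% Wilson intervals, and black lines give the share over all C57BL/6 loci. The shared class is the highest for every factor, with ATF3 at 79.4% and PPARγ at 80.0%.

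Combining the lists, 54.0% (53.3 to 54.6) of the KLA-only loci had both a monomer and a lineage factor in Veh, 9.48% a monomer alone and 11.3% a lineage factor alone. The other 5863 loci, or 25.2% (24.6 to 25.8), had none of the 8 in Veh. Of the shared loci 5.22% (4.05 to 6.70) had none, a difference of -20.0 points for shared minus KLA-only (-21.3 to -18.4). The 5863 loci had lower Fos counts, with a median of 40 against 58 for the 14767 KLA-only loci with a monomer in Veh. They were still bound by other monomers after KLA, with JunD listed at 71.4% and ATF3 at 75.7%, and PU.1 was listed after KLA at 26.7%. TGAGTCA was in the central 200 bp of 46.7% of them, against 41.3% of the loci with a monomer, a difference of 5.43 points (3.92 to 6.93). The PU.1 word AGGAAGT was in 9.69% against 22.3%, and the NFκB word GGGANTTTC was in 4.84% against 1.54%, higher by 3.31 points (2.74 to 3.92). NFκB and the interferon regulatory factors (IRFs) are factors activated by TLR4. The IRF word GAAANNGAA was in 8.46% against 8.24%, a difference of 0.225 points (-0.598 to 1.08).

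The strongest of these loci lay at or near Fos, Cd44, Tmprss4 and Mapk14. The first was 38.9 kb downstream of the Fos TSS, outside genes, at chr12:85513738-85513964, and had a Fos count of 293 in KLA. No peak of any of the 8 factors was listed there in Veh, while the KLA counts were 378 for ATF3, 1034 for JunD, 110 for Jun, 127 for FosL2, 153 for JunB, 183 for PU.1 and 111 for CEBPα. All 7 factors with a KLA list were thus listed at this site after KLA. A locus in an intron of Cd44, an adhesion receptor, with a count of 232, and one 30.5 kb upstream of Tnfaip3, an inhibitor of NFκB signalling, with a count of 169, were also among the 10 strongest. Slc7a11, a cystine transporter, and Mapk14, the p38α kinase, were others, with counts of 179 and 203.

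After KLA, Fos rarely appeared without other monomers at the KLA-only loci. JunD had a KLA peak at 86.9% (86.4 to 87.3) of the KLA-only loci, ATF3 at 88.9% (88.5 to 89.3), Jun at 58.2%, JunB at 49.3% and FosL2 at 36.9%. One or more of Jun, JunB and JunD was listed at 89.4% (89.0 to 89.8), and 5.38% (5.09 to 5.67) had none of the 5 monomers. Of the shared loci 12.4% (10.6 to 14.5) had none of the 5 in KLA, and of the shared promoter loci 30.3% (26.1 to 34.9). Over all C57BL/6 loci a KLA peak of JunD was listed at 38.5%, of ATF3 at 44.8%, of Jun at 21.3%, of JunB at 16.4% and of FosL2 at 13.0%. The Veh-only loci were again different, with 71.7% (68.3 to 74.9) of them lacking all 5 in KLA. BALB/cJ macrophages, from the other strain of the study, had a Fos peak after KLA at 89.4% (89.0 to 89.8) of the KLA-only loci, 88.9% (86.9 to 90.7) of the shared and 49.4% (45.8 to 53.1) of the Veh-only loci. The BALB/cJ list was longer, with 40459 peaks against 24365 in the C57BL/6 KLA list, and its length enters these shares.

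The features of the KLA loci moved with the Fos count. In the 10% of KLA loci with the highest counts (115 to 312), 92.8% (91.7 to 93.7) had another monomer in Veh, and in the lowest 10% (23 to 29) 40.1% (38.2 to 42.1) did. FosL2 in Veh fell from 50.9% to 4.23% between these ends and PU.1 in Veh from 62.5% to 35.5%. Fos itself was listed in Veh at 16.4% of the highest group and 2.09% of the lowest. The share within 1 kb of a TSS went the other way, from 7.96% to 19.5%. A higher Fos count after KLA thus went with more frequent earlier binding of the other monomers. A strong locus is also easier to list in any of the lists, and the part of this in the trend was not tested.

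**Figure D3:**
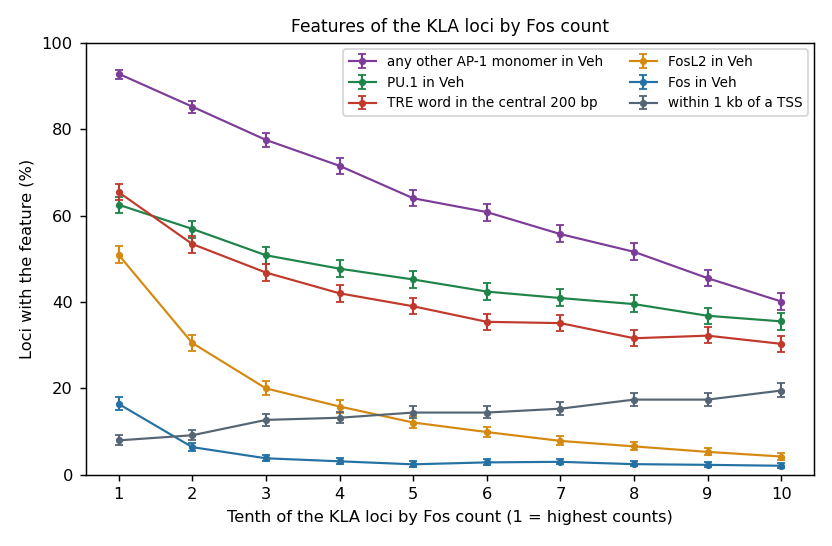
The plot gives, for the KLA loci in 10 equal groups by Fos count (1 is the highest), the share of loci (%) with each feature and its 95% Wilson interval. Another AP-1 monomer in Veh goes from 92.8% in the highest group to 40.1% in the lowest, while the share within 1 kb of a TSS goes from 7.96% to 19.5%.

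The 10 KLA-only loci with the highest Fos counts lay between 3.40 and 113 kb from the nearest TSS. The first was 22.8 kb upstream of Chst11, which encodes a chondroitin sulfotransferase, with a count of 305, and the second was 19.9 kb upstream of Sema4b, a semaphorin, with a count of 294. The third was the Fos locus above. Pfkfb3, a regulator of glycolysis, had a locus at 52.3 kb with a count of 284, and an intron of Iqgap1, a cytoskeletal scaffold, had one with a count of 282. Sqle (280), Irf2bp2 (276), Susd1 (274), Dennd2a (274) and Reep3 (271) completed the 10 by count. Nearness to a TSS does not show which gene a locus acts on. Of the 10, 9 had another monomer in Veh, 8 had PU.1 and 9 had PPARγ, and all 10 had a Fos peak in BALB/cJ after KLA. At the Chst11 locus the Veh counts were 198 for ATF3, 55 for Jun, 134 for JunD, 52 for FosL2, 340 for PU.1, 50 for CEBPα and 131 for PPARγ. That site therefore held 7 of the 8 factors before Fos was listed.

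The shared loci with the highest KLA counts looked alike in these lists. An intron of Camk2d, a calcium-dependent kinase, had counts of 312 in KLA and 56 in Veh. The locus 12.5 kb from the TSS of Tob2, an antiproliferative factor, had 288 and 46, and that at the Ehd1 TSS had 284 and 40. Jazf1 (284 and 32), Dlx2 (274 and 50), Dennd2a (274 and 26), Noct (272 and 33), Ergic1 (270 and 39), Tpra1 (269 and 25) and Dhx34 (268 and 43) followed. ATF3, Jun, JunD, FosL2, PU.1 and PPARγ had a Veh peak at all 10, and 1 of the 10 lay within 1 kb of a TSS.

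The shared class was made of loci of unlike kinds. Among the 405 shared loci more than 10 kb from a TSS, ATF3 had a Veh peak at 95.1% and JunD at 96.3%, and at least 1 monomer was listed at 99.0% (97.5 to 99.6). Among the 419 shared promoter loci ATF3 stood at 54.7% and JunD at 52.5%, with differences of -40.4 points (-45.5 to -35.1) and -43.8 points (-48.8 to -38.5) for promoter minus distal. TGAGTCA was in 65.7% (60.9 to 70.1) of the distal windows and 18.6% (15.2 to 22.6) of the promoter windows. The counts differed likewise. The median KLA count was 123 at the distal and 45 at the promoter loci, while the median Veh count was 20 and 27. The Spearman correlation of the 2 counts was 0.52 over the distal loci, 0.54 over the 269 loci at 1 to 10 kb, -0.04 over the promoter loci and -0.01 over all 1093. These correlations run over loci of the same pair of lists and are descriptions.

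**Figure D4:**
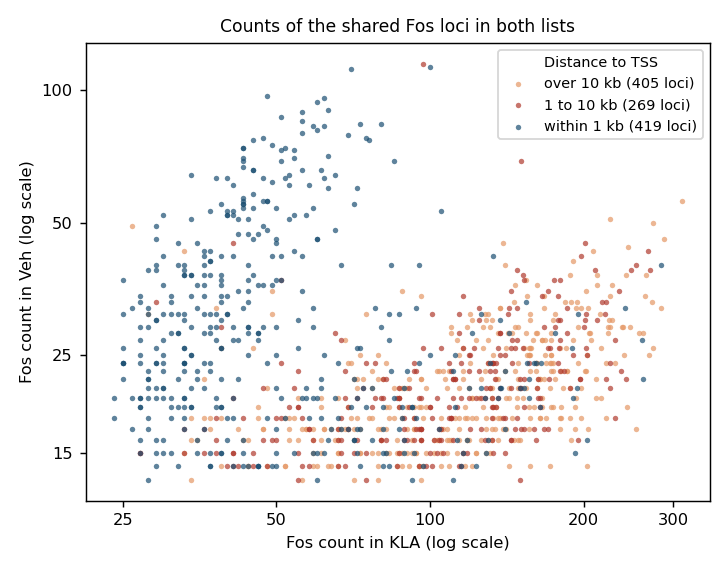
Each point is a shared locus, with its Fos count in the KLA list on the x axis and in the Veh list on the y axis, both log scales, coloured by distance to the nearest TSS. Loci within 1 kb have a median KLA count of 45 and reach Veh counts of 113 and KLA counts of 284. Loci more than 10 kb away have a median KLA count of 123 and reach Veh counts of 56 and KLA counts of 312. The highest Veh count, 115, is at a locus 1 to 10 kb from a TSS.

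The promoter loci of the shared class were divided by the CCAAT word. At the 234 with 2 or more such words in the central 200 bp, the median count was 41 in KLA and 37 in Veh, TGAGTCA was in 5.13% and another monomer was listed in Veh at 51.7%. At the 116 with none, the median count was 82.5 in KLA and 20 in Veh, TGAGTCA was in 48.3% and a monomer was listed at 92.2%. The Spearman correlation of the counts was 0.53 over the former and 0.15 over the latter. The 69 with 1 such word had TGAGTCA in 14.5% and a monomer in Veh at 73.9%. The set without CCAAT was thus nearer than the others to the shared distal loci in TGAGTCA and monomers. CCAAT was chosen from the Veh-only loci, so likeness to them in that word follows from the split. Of the Veh-only promoter loci with 2 or more CCAAT words, 29.8% had a monomer in Veh, below the 51.7% of the shared ones. By Veh count, the strongest shared loci lay near Zfp869 (115 in Veh, 97 in KLA) and at the promoters of Gatad2a (113 and 100), Cnot3 (112 and 70), the clock gene Arntl (97 and 48) and Hmgcs1 (96 and 62), an enzyme of cholesterol synthesis. At the last 3 none of the 5 monomers had a Veh peak. These genes were named after their values were seen.

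Over the classes, TGAGTCA was in 40.8% (40.2 to 41.4) of the KLA-only windows, 47.5% (44.5 to 50.4) of the shared and 2.25% (1.39 to 3.63) of the Veh-only windows. It was in 3.02% of windows set every 50 kb along the genome, in 3.22% of the 200 bp upstream of protein-coding genes and in 8.09% of the C57BL/6 loci without Fos. With the KLA list cut to the length of the Veh list the KLA-only share was 65.3%. The Veh-only share was below the KLA-only share by 38.6 points (37.0 to 39.6). The CRE word TGACGTCA, bound by CREB and ATF dimers, was in 0.744% of the KLA-only and 1.69% of the Veh-only windows. It was in 1.89% of the 200 bp upstream of protein-coding genes. The TRE words were centred, at 10.4 matches per 100 KLA-only loci in the 20 bp just past the locus centre and 0.282 in the same bin of Veh-only loci.

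CCAAT showed the opposite pattern. It was in 93.1% (91.0 to 94.7) of the Veh-only windows, 40.4% (37.6 to 43.4) of the shared and 21.8% (21.3 to 22.3) of the KLA-only windows. Over Veh-only promoter loci it was in 95.1% (93.2 to 96.6), and 72.1% (68.5 to 75.4) had 2 or more. In the 200 bp upstream of all protein-coding genes these shares were 31.7% and 9.10%, which is lower by 63.5 points (61.4 to 65.0) and 63.0 points (59.4 to 66.4). At the KLA-only promoter loci they were 23.4% and 3.87%, and at promoter loci of the other C57BL/6 lists without Fos 23.2% and 4.23%. The longer NF-Y word AGCCAAT, which contains CCAAT, was in 41.3% (37.7 to 44.9) of the Veh-only and 2.50% (2.31 to 2.71) of the KLA-only windows. The GC-rich word CCCCGCCC, bound by SP factors, was in 28.6% and 2.51%. In the 200 bp upstream of all protein-coding genes AGCCAAT was in 8.03% and CCCCGCCC in 18.6%. At promoter loci alone CCCCGCCC was in 30.6% of the Veh-only and 9.29% of the KLA-only windows. The CCAAT matches peaked at the centres of the Veh-only loci, with 31.0 per 100 loci in the 20 bp just before the centre, and were flat across the KLA-only loci, with 2.46 in the same bin. A match to a word is a description of the sequence and does not show that its factor was bound.

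**Figure D5:**
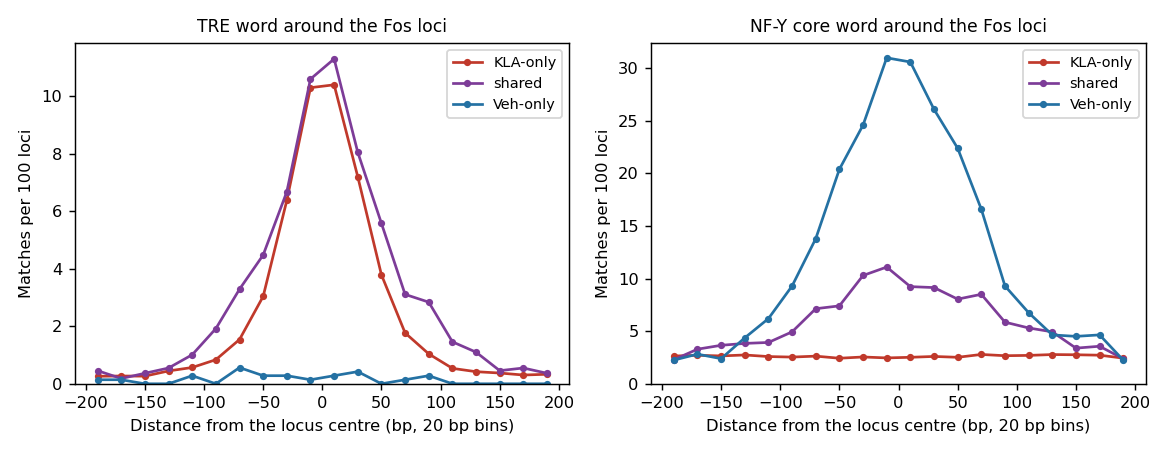
The panels give the matches per 100 loci in 20 bp bins of distance from the locus centre for the TRE word (left) and the core word of the NF-Y site (right) in the 3 classes. The TRE word peaks at KLA-only and shared loci (10.4 and 11.3 just past the centre) and the other word at Veh-only loci (31.0 just before it).

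The Veh lists of the other monomers did not have these features to the same degree. Of the 1804 Fos peaks in Veh 58.6% (56.4 to 60.9) lay within 1 kb of a TSS, against 22.5% in the FosL2 list, 22.1% in JunD, 18.3% in Jun, 18.1% in ATF3 and 12.7% in JunB in Veh. The gap was 36.1 points (33.6 to 38.6) to FosL2 and 40.5 points (38.2 to 42.8) to ATF3. Among promoter peaks, 66.5% (63.6 to 69.3) of the Fos peaks in Veh had 2 or more CCAAT words, against 1.69% to 6.58% in the other 5 Veh lists. The narrowest gap was 60.0 points (56.9 to 62.9), to Jun. In the KLA list of Fos the share was 9.98%. The highest 10% of the Veh loci by count (42 to 115) lay within 1 kb of a TSS in 91.2% (86.1 to 94.5) and had another monomer in Veh in 48.6%, while the lowest 10% (13 to 15) had 51.7% and 78.3%. The strongest Fos loci of Veh were therefore those with fewer other monomers than those at the low end.

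The 10 strongest Veh-only loci all lay within 1 kb of a TSS, 41 to 265 bp upstream. Their Veh counts were 83 at Ap3m2, an adaptor subunit of vesicle sorting, 82 at Jpt2, 79 at Fdft1, which encodes squalene synthase, 77 at Ppm1b, a phosphatase, and 75 at Sdf2l1, an endoplasmic reticulum protein. Ubald2 followed with 74, Mxd4 with 73, Ivd with 72, Derl2 with 71 and Sin3a with 69. Another monomer was listed in Veh at 4 of the 10, PU.1 at 4 and PPARγ at 6. At the Ivd promoter, of a mitochondrial enzyme of leucine breakdown, no peak of the other 8 factors was listed in Veh, nor any in KLA. A Fos peak was listed in BALB/cJ after KLA at 5 of the 10, among them Jpt2 with a count of 92.

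The peaks that Fos gained with KLA had more lineage factors in Veh than those of ATF3, Jun and JunD, and fewer than those of JunB. PU.1 had a Veh peak at 45.0% of the KLA-only Fos peaks, against 26.0% of those of ATF3 and 29.2% of those of JunD, gaps of 19.0 points (18.1 to 19.9) and 15.7 points (14.8 to 16.7). CEBPα stood at 24.4% for Fos, 6.70% for ATF3 and 10.8% for JunD. The KLA-only peaks of JunB had more of both than those of Fos, at 50.8% and 30.5%, and those of FosL2 differed from Fos in PU.1 by -0.452 points for Fos minus FosL2 (-1.72 to 0.811). A peak counted as gained where the monomer had no Veh peak of its own, so the Veh lists, of 23160 peaks for ATF3 and 463 for JunB, enter these shares.

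A protein-coding gene was counted as having a locus where the centre lay in the gene or within 10 kb. Of the 21911 genes, 35.6% had a KLA-only locus, 5.37% a shared locus and 5.29% a Veh-only locus. The KLA-only share was 56.4% with 50 kb on each side and 4.24% with the KLA list cut to the length of the Veh list. The genes with a KLA-only locus were longer, with a median of 28.0 kb against 13.0 kb for those without, so a long gene had more room for one. The 5 genes with the most KLA-only loci were Gm20388 with 104, Foxp1 with 40, Lpp with 39, Etv6 with 31 and Fgfr2 with 31. Gm20388 is an annotated model of 4435 kb that spans many other genes, and Fgfr2 one of 2961 kb. Foxp1 and Etv6 encode transcription factors, and Foxp1 spans 597 kb.

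The immediate-early and signalling genes had KLA-only loci more often than the 35.6% of all genes. Among the AP-1 genes 13 of 15 had one, and the highest count was 203, at 7.01 kb from the start of Junb, which had 6 KLA-only loci. Batf followed with 136, Atf3 with 134 and Jdp2 with 104. Jun had no Fos locus of any class within 10 kb, and Jund had a shared one 93 bp upstream of its start with counts of 27 in KLA and 15 in Veh. Of the other immediate-early genes 16 of 17 had a KLA-only locus, and 5 had a shared one, which 5.37% of all genes had. Klf2 had a shared locus with 170 in KLA and 26 in Veh, and the highest KLA-only counts were 161 at Myc, 143 at the promoter of Zfp36, whose product degrades cytokine mRNAs, and 139 at Ier5. At the Ier5 locus no other monomer was listed in Veh.

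Of 12 genes of NFκB subunits and inhibitors 11 had a KLA-only locus and 0 had a shared one, beside 35.6% and 5.37% of all genes. The highest counts were 225 at Tnip1, 152 at 94 bp upstream of Nfkbia, the gene of IκBα, 133 at Rel and 130 at the promoter of Nfkbie. All 10 dual-specificity phosphatase genes, which switch off MAP kinases, had a KLA-only locus. Dusp7 reached 250 and Dusp1 226, with 18 KLA-only and 2 shared loci at Dusp1, and Dusp3 reached 129 and Dusp10 124. Each of these 4 phosphatase loci had 3 or 4 other monomers in Veh.

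The genes of inflammatory mediators also had loci. All 20 cytokine genes had a KLA-only locus, and 4 had a shared one, beside 35.6% and 5.37% of all genes. The highest counts were 191 at Il27, 174 at Il1rn, the receptor antagonist of IL-1, 171 at Il10 and 155 at 165 bp upstream of Il1b. Of 17 chemokine genes 16 had one, with 180 at a locus counted for both Ccl6 and Ccl9, 157 at Cxcl16 and 149 at 0.131 kb from the start of Ccl4. No other monomer was listed in Veh at the Ccl6 and Ccl9 locus. In the list of prostaglandin, nitric oxide and arginine genes 10 of 11 had one, led by Ptges at 230, Acod1 at 192, Alox5ap at 135 and Ptger2 at 123. Of 16 matrix protease and remodelling genes 15 had one, among them Plau with 172, Timp2 with 136 and Plaur with 134. The interferon response genes had one in 15 of 17, with 145 at Gbp5, 97 at Rsad2 and 90 at Stat2. The strongest locus of Oasl1 was shared, with 110 in KLA and 18 in Veh.

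Genes of macrophage identity and function had them too. The counts of this paragraph stand beside 35.6% of all genes with a KLA-only locus. Of 14 lineage factors 12 had a KLA-only locus, with 190 at Mitf and 162 at Bhlhe40. The strongest loci of Runx1 (238 in KLA, 29 in Veh) and Irf5 (165 and 24) were shared. Of 19 surface receptor genes 18 had one, with 181 at Cd36, 150 at Cd68 and 144 at Fcgr1. The strongest locus of Trem2 was shared, with 170 in KLA and 35 in Veh. Of 16 genes of PPARγ and lipid handling 14 had one, with 174 at Nr1h3, 140 at Abca1, 126 at Plin2 and 115 at Pparg. Of 16 genes of TLR4 and its adaptors 10 had one, with 150 at Cd14, 142 at Irak2 and 130 at Tab2. Ticam1 had a shared locus with 186 in KLA and 28 in Veh. Lysosome genes had one in 14 of 20, with 188 at Ctsb and 136 at Ctsd. The strongest loci of Ctsk (181 in KLA, 23 in Veh) and Hexa (152 and 26) were shared.

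The lists of housekeeping genes and of markers of other cells had smaller shares, of which 3 were still above the 35.6% of all genes. The lowest of these, 38.5% of the 13 markers of neutrophils, eosinophils and mast cells, was close to it. Of 22 ribosomal protein genes 12 (54.5%) had a KLA-only locus, with 131 at Rps14, 71 at Rpl10 and 71 at Rpl11, while the strongest locus of Rpl3 was shared, with 144 in KLA and 35 in Veh. A KLA-only locus was also found at 6 of 13 markers of T and B cells, led by Ms4a1 at 107, Cd79b at 44, Cd4 at 43 and Cd3d at 37. Of the markers of neutrophils, eosinophils and mast cells 5 of 13 had one, led by Ltf at 82, Siglecf at 73, S100a8 at 53 and Camp at 52. Of 10 markers of fibroblasts and mesothelium 2 had one, Upk3b at 136 and Pdgfra at 32, and of 10 of hepatocytes and neurons 2 had one, Syn1 at 59 and Rbfox3 at 57. Veh-only loci lay at 1 or 2 genes in 8 of the lists and at 0 in the other 11. Of all genes 5.29% had one, so lists this short are not read as lacking them.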

How the data were processed

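ChIP-seq of Fos in TGEMs was analysed from one peak list per condition. Cells were crosslinked with DSG and formaldehyde. The authors aligned reads to mm10 with Bowtie2, called peaks of 200 bp with HOMER against input at a loose false discovery rate (0.9), with the local and clonal filters set to 0, and kept peaks with an irreproducible discovery rate under 0.05 (idr 2.0.3). The deposited lists hold a whole-number read count per peak, not scaled to library depth, and a scaled IDR score, 540 at IDR 0.05 and 1000 at most. The depth of the libraries is not in these lists. BALB/cJ reads were aligned to that strain's genome and shifted to mm10 by the authors.

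Here 17 C57BL/6 lists and the BALB/cJ Fos KLA list were used. Loci were joined at 1 bp of overlap and placed against GENCODE M21 (GRCm38), with sequence from RefSeq GRCm38. Words were sought on both strands in the central 200 bp with Python 3.11.15, numpy 2.4.6, pandas 2.3.3 and scipy 1.17.1, and the code was tested on simulated data. Wilson and Newcombe intervals (95%) treat loci as independent and cover counting only. With 1 list per condition no test between samples was made. Members and gene lists were chosen with earlier results of these data known, and the words of the NF-Y and SP sites were added after the lists were seen. Named loci are the 10 with the highest Fos count per class, by nearest TSS, named genes are the 5 with the most KLA-only loci and the 4 with the highest counts per list, and others are said to be chosen after their values were seen or illustrate a set. Alternatives changed the overlap, score, list length, distances, window and gene rule. The other lists of the series were not used here. One gene that the naming rule selects is not reported here.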

Additional observations from a re-analysis of the deposited data

How the results depend on the processing

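Of 93 alternative values for 13 results, 25 moved by less than the counting interval or, for numbers of loci, by less than 1.5 times, and 68 moved further, of which the cause was not tested beyond the smaller lists, windows or distances used. In all of them Veh-only loci had the highest and KLA-only loci the lowest share within 1 kb of a TSS. In the order KLA-only, shared and Veh-only, that share was 23.7%, 45.7% and 92.5% with 3 kb in place of 1 kb, 9.04% (KLA-only) and 87.2% (Veh-only) with 500 bp, and 16.4%, 41.7% and 92.0% with all annotated genes. Veh-only loci stood at 86.0% with overlap covering 50% of each peak and 85.4% with centres within 100 bp.

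With the KLA list cut to the length of the Veh list, there were 1461, 343 and 1461 loci, shares within 1 kb of 7.60%, 9.62% and 70.2%, another monomer in Veh at 93.6% of KLA-only and 99.7% of shared loci, PU.1 in Veh at 61.5% and TGAGTCA at 65.3% of KLA-only loci, AGCCAAT at 31.2% of Veh-only loci, and 4.24% of genes with a KLA-only locus. In the same order of measures, a score of 1000 gave 14080, 127 and 303 loci, 11.5%, 56.7% and 94.1%, 76.1% and 78.7%, 51.5%, 47.4%, 48.5% and 25.2%. A score of at least 830 gave 331 shared and 438 Veh-only loci, 12.0%, 45.9% and 93.6%, 72.3% and 83.4%, 49.3%, 44.8%, 48.6% and 28.5%. The strongest peaks of each list, cut at its median, gave 11837 KLA-only and 345 shared loci, 11.1%, 26.1% and 93.2%, 77.8% and 92.8%, 52.0%, 48.8%, 47.0% and 22.4%.

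Factor lists cut at their medians put another monomer in Veh at 42.1% of KLA-only and 74.4% of shared loci and PU.1 at 28.6% of KLA-only loci, and factor centres within 100 bp gave 61.4%, 80.6% and 38.7%. In the central 100 bp TGAGTCA was in 34.6% of KLA-only and AGCCAAT in 29.2% of Veh-only loci, and CCAAT in place of AGCCAAT gave 93.1%, a choice made after seeing the data. BALB/cJ Fos stood at 87.4% of KLA-only loci with centres within 100 bp. Genes with a KLA-only locus made up 56.4% with 50 kb on each side and 32.2% by nearest TSS.

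No paired analysis was possible because the replicates were combined into one list per condition. For the same reason no replicate was left out. The lists give no library depth, so the difference in length between the KLA and Veh lists cannot be told apart from a difference in depth or enrichment, and binding under the authors' thresholds was not measured.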
